A study of Oryctolagus cuniculus with 18 samples.

Results

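Of 2052 cDNA clones measured on arrays of rabbit (Oryctolagus cuniculus) embryos, 96 had a level in the early morula that stood above both the 4-cell stage and the expanded blastocyst. They were chosen from the deposited series table, which gives a score per clone and array on a scale that is not stated: the mean score over the 6 morula columns had to exceed the mean over the 6 4-cell columns, and the mean over the 6 blastocyst columns, by at least 0.6. Embryos developed in vivo and were collected at 32 h post coitum (4-cell), 58 h (early morula, called morula below) and 90 h (expanded blastocyst), apart from 1 blastocyst pool taken at 96 h. Each stage had 3 pools. The 4-cell pools held 53 embryos of 3 females, 52 embryos of 4 females and a number not given from 2 females. The morula pools held 34, 35 and 32 embryos of 2 females each, and the blastocyst pools 16, 37 and 60 embryos of 2, 4 and 7 females. The RNA of every pool was amplified in 2 ways, once as antisense RNA (aRNA) made by in vitro transcription and once by PCR, then labelled with 33P and hybridised, which gave 18 arrays. No genotype, strain or treatment is given for any group. The files pair no clone ID with a gene or a sequence, so clones are given by ID, and the stage labels were not checked against marker genes.

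The morula is the stage at which the cells of the embryo flatten against each other and compact, shortly before an outer layer, the trophectoderm, and an inner cell mass become distinct. In mammals the first divisions run largely on RNA that the oocyte stored, which is degraded while the embryo's own genome is switched on. In the rabbit the main wave of embryonic transcription begins shortly before the morula, and some embryonic transcripts are present for only a short window. A pool is a mixture of whole embryos, so a lower signal from fewer cells of a type and from less RNA per cell cannot be told apart, and levels are relative to the other clones on the array.

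The scores that chose the members are a description and carry no test. Morula minus 4-cell had a median of 1.01 over the 96 members and morula minus blastocyst one of 1.04 (score units), against medians of -0.05 and 0.04 over all clones. Just inside the threshold lay lcao0025c07, with a smaller difference of 0.603, and lcap0008f07, with 0.602. Just outside lay lcap0010e09, which was 1.18 above the 4-cell stage and 0.599 above the blastocyst, and lcap0020d01, with 0.592 and 0.594. No gap in the scores marks the edge of the group, and 62 clones met the rule at a threshold of 0.8 and 175 at 0.4. The 16 clones that were spotted more than once, all with the prefix lcao, are listed at 0 in every column of the series table and could not meet the rule. In the array tables their highest morula excess over both other stages was 0.10 (log2).

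All further levels come from the array tables, as log2 intensities that were quantile normalized within each amplification and averaged over the 2 arrays of a pool. On this scale 95 of the 96 members passed 0.6 at both steps. The median morula minus 4-cell difference was 1.20 and the median morula minus blastocyst difference 1.25, against -0.05 and 0.07 over all clones. Both differences exceeded 1 (2-fold) in 55 members, against 56 of all 2052 clones, and exceeded 2 (4-fold) in 8 members, which are all the clones of the array with so high a peak.

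**Figure D1:**
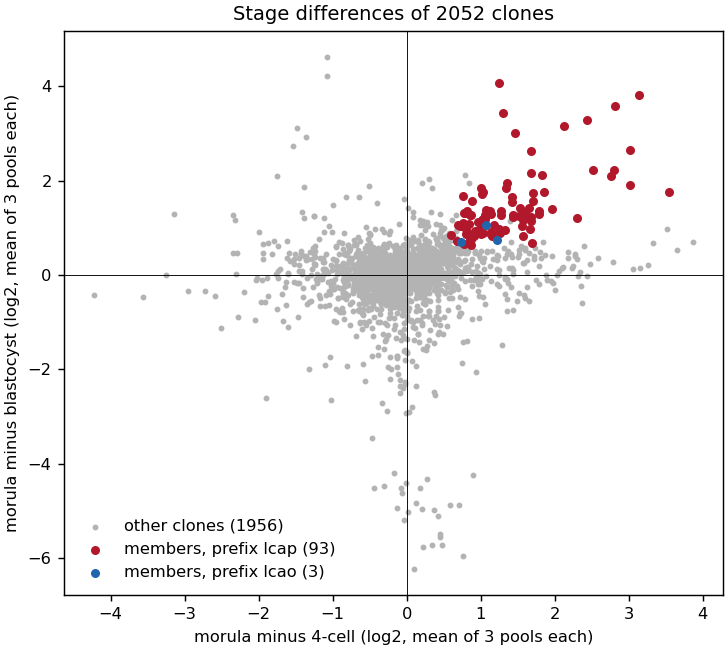
Each point is a clone, with its morula minus 4-cell difference on the horizontal axis and its morula minus blastocyst difference on the vertical axis (log2, mean of 3 pools per stage). The 93 members with the prefix lcap and the 3 with the prefix lcao fill the upper right, where both differences are positive, since they were chosen there.

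The highest measured peak belonged to lcap0016c06. Its levels in 4-cell pools 1 to 3 were 7.63, 8.49 and 7.58, in the morula pools 11.30, 11.08 and 10.75, and in the blastocyst pools 7.33, 7.52 and 6.83 (log2). The 3 morula pools lay more than 2 log2 units above every other pool. The XWAB spots carry no clone name of the lca series and their role is not given; the signal that 95% of them stayed under on an array, the XWAB percentile, was taken as its level of dim spots. Where a clone exceeded it on fewer than 3 arrays of a stage, the fold against that stage is given as a lower bound. The peak of lcap0016c06 came to at least 5.67-fold over the 4-cell stage, where 2 of 6 arrays were above that percentile, and to at least 6.84-fold over the blastocyst, where 0 of 6 were.

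The next highest measured peak was that of lcap0010c03. It measured 8.29, 8.31 and 7.80 in 4-cell pools, 11.19, 10.81 and 10.84 in morula pools and 7.27, 7.49 and 7.33 in blastocyst pools. Its morula level was at least 4.79-fold above the 4-cell stage (above the XWAB percentile on 2 of 6 arrays there) and at least 6.42-fold above the blastocyst. Over the 18 arrays the levels of lcap0016c06 and lcap0010c03 correlated at r = 0.97. The median over the 4560 pairs of members was 0.64, and these pairs share the peak that chose them. The deviations of the 2 clones from the means of each stage and amplification correlated at only 0.31.

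The largest measured difference from the 4-cell stage belonged to lcap0007a02, which was also among the brightest members in the morula. Its levels were 8.77, 8.64 and 7.76 in 4-cell pools, 11.78, 12.10 and 11.92 in morula pools and 10.05, 9.96 and 10.52 in blastocyst pools. Its morula level was at least 8.28-fold above the 4-cell stage (2 of 6 arrays above the XWAB percentile there) and 3.38-fold above the blastocyst, and all 3 blastocyst pools lay above the 4-cell pools. On all 6 blastocyst arrays it was above the XWAB percentile. The other bright member, lcap0023e12, was above that percentile on all 18 arrays. It measured 10.60, 10.70 and 10.55, then 12.07, 12.27 and 11.59, then 9.95, 9.88 and 10.27 in the pools of the stages in order, a peak 2.57-fold over the 4-cell stage and 3.84-fold over the blastocyst.

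In lcap0024b04 the blastocyst was dim on all 6 arrays. Its 4-cell levels were 9.85, 9.34 and 8.40, its morula levels 11.21, 10.31 and 9.81 and its blastocyst levels 6.34, 6.41 and 6.37. The lowest morula pool and the highest 4-cell pool of this clone overlapped, and all blastocyst pools lay below both. Its morula level was at least 4.53-fold above the blastocyst. A like order of stages was measured in lcap0008f06, with 9.38, 9.11 and 8.33 in 4-cell pools, 10.69, 10.58 and 9.43 in morula pools and 6.72, 6.66 and 7.01 in blastocyst pools. Its blastocyst, too, was above the XWAB percentile on 0 of 6 arrays, and its morula level was at least 3.92-fold higher. These 2 clones had the most similar profiles of all pairs of members (r = 0.98 over 18 arrays, rank 1 of 4560), and their deviations from the means of each stage and amplification correlated at 0.89.

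Levels at the stages on either side of the peak were compared as a description, since the rule used both and most members were dim at both. The median blastocyst minus 4-cell difference was -0.00313 (log2) over the members, with 48 above and 48 below 0, against -0.08 over all clones. The blastocyst lay within 0.5 of the 4-cell level in 68 of 96 members (70.8%, against 57.1% of all clones), and beyond 1 in 4 members upwards and 4 downwards. By limma over all clones, blastocyst and 4-cell levels differed in 12 members, 4 higher and 8 lower in the blastocyst. Over all clones 28.8% were called in this contrast, 14.7% up and 14.2% down. The pools of these stages did not overlap in 28 members (44.5% of all clones), with 11 higher in the blastocyst (20.8%) and 17 lower (23.7%). Nothing is read from the members' counts. Another member named for its blastocyst minus 4-cell difference, lcap0025f08, had levels of 7.11, 6.97 and 6.42, then 11.02, 8.76 and 9.76, then 7.98, 8.11 and 7.71. Its morula pools spread over 2.26 log2 units, with an SD of 1.14, the largest of all 96 members, and its morula level was at least 2.51-fold above the 4-cell stage and at least 2.94-fold above the blastocyst.

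**Figure D2:**
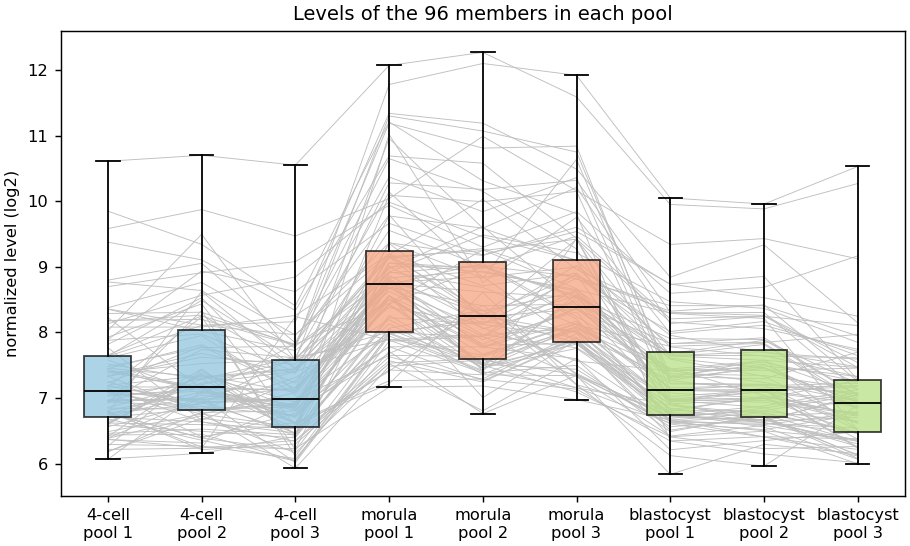
Each thin line follows 1 of the 96 members over the 9 pools (normalized level, log2), and the boxes give the quartiles and median with whiskers to the lowest and highest member. The medians lie between 8.25 and 8.74 in the 3 morula pools and between 6.93 and 7.16 in the 6 other pools.

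The members' levels differed between pools of a stage. The median member level was 7.10, 7.16 and 6.98 in 4-cell pools 1 to 3, 8.74, 8.25 and 8.39 in morula pools and 7.12, 7.12 and 6.93 in blastocyst pools. Morula pool 1 was the highest of the 3 for 54 members, and blastocyst pool 3 the lowest of the 3 for 71. The blastocyst pool taken at 96 h (pool 1) had the same median member level as pool 2, taken at 90 h. Whole arrays differed in brightness as well. The raw median of all clone spots in blastocyst pools 1 to 3 was 386, 240 and 36 on aRNA arrays and 120, 86 and 28 on PCR arrays. In the morula pools it was 350, 78 and 215 (aRNA) and 104, 68 and 123 (PCR). The part of array brightness in the differences between pools was not tested. Taken over the 3 pools of a stage, the members' median SD came to 0.29 (4-cell), 0.40 (morula) and 0.21 (blastocyst), against 0.31, 0.23 and 0.18 over all clones.

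All 3 morula pools lay above all 6 other pools in 83 members, against 8.28% of all clones (170). Limma called 84 members higher in the morula than at the 4-cell stage (11.7% of all clones), 81 higher than in the blastocyst (8.04%) and 75 higher than both (4.09%, 84 clones). These counts restate the choice of the members and are not evidence for it. The count of 75 became 43 without morula pool 1 (2.34% of all clones) and 34 under median centring (1.66%). The digit after the slash in each label (4, 5 or 6) is called the array code here, and its meaning is not given. Each code holds 1 pool per stage. With the code as a block the count was 83 (4.63%), and without the pools of code 5 or 6 it was 43 (2.19%) or 30 (1.51%). The members' median morula minus 4-cell and morula minus blastocyst differences were 1.23 and 1.34 among the pools of code 4, 1.00 and 1.08 in code 5, and 1.61 and 1.39 in code 6. The morula was the highest stage in all 3 codes for 90 members, against 12.4% of all clones.

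The raw intensities give the brightness of the members on the arrays. Their median on a morula array was 2.19 to 5.69 times the median of all clone spots on that array, and 0.966 to 1.41 times on 4-cell arrays and 0.964 to 1.58 times on blastocyst arrays. At the 4-cell stage 80 members, and in the blastocyst 83, lay above the XWAB percentile on none or 1 of 6 arrays, as did 84.9% and 82.5% of all clone spots. In the morula 23 members were above it on all 6 arrays (8.24% of all clone spots) and 21 on none or 1. By this cut the troughs of most members on either side of the peak are treated as bounds, and differences between 2 dim stages as poorly measured. Whether the cut marks a limit of detection is not known, and it differed between arrays. On the aRNA array of morula pool 2 (member median 250.5) 85 members were above it, and on that of pool 3 (996.5) 52 were. The deposited quality value, 0 or 1 per spot and of unstated meaning, was 1 for 33 to 91 members on the morula arrays (12.2% to 35.6% of all clone spots), 0 to 41 on the 4-cell arrays (3.69% to 26.0%) and 4 to 62 on the blastocyst arrays (7.52% to 31.4%). On the aRNA arrays of blastocyst pools 1 and 2 it was 1 for 64.6% and 56.2% of the members, against 31.4% and 29.0% of all clone spots. No member spot reached the highest intensity in the files, at which 3 other spots lay.

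Nearly all members came from 1 of the 2 large groups of clone names. The prefix lcap, which 1017 clones carry, held 93 members (9.14%), and the prefix lcao, which as many clones carry, held 3 (0.295%); what the prefixes mean is not given. The 924 lcap clones that are no members had medians of 0.03 for morula minus 4-cell and 0.13 for morula minus blastocyst (log2). Over the lcao clones these medians were -0.17 and -0.04, so the prefixes differed beyond the members as well. The members with the prefix lcap came from all 25 plates in the clone names, 1 to 7 per plate, or 2.5% to 17.9% of the plate's clones on the array. They lay in all 16 blocks of the array, 3 to 10 per block. The 3 lcao members are named because they are so few. In lcao0046c10 the morula pools were at 7.97, 8.23 and 8.35 and the 4-cell pools at 6.92, 8.33 and 6.11, so that they overlapped. In lcao0025c07 the morula levels of 8.00, 7.93 and 8.65 stood above the 4-cell levels of 6.97 to 6.98 and the blastocyst levels of 7.66, 7.82 and 6.92. In lcao0029d09 they were 7.90, 7.65 and 8.13, against 6.86, 7.23 and 7.41 before and 7.16, 7.19 and 7.23 after. All 3 were above the XWAB percentile on at most 3 of 6 morula arrays and on at most 1 array of the other stages, so no fold is given.

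The spots around the members were examined for bright neighbours. A spot next to a member was at least 4 times as bright, as a mean over the 18 arrays, for 29 members (30.2%), against 64.8% of clone spots and 64.1% of lcap spots. No test was made of this difference. The ratio divides by the spot's own mean raw intensity, which the morula peak of the members raises. A lower share is therefore partly built in by the choice and does not show that members receive less neighbouring signal. In 16 of those 29 the brightest neighbour was itself highest in the morula (55.2%, against 37.5% over all clone spots with so bright a neighbour), and in 4 it was another member. An adjacent member was found for 30 members (31.2%), as for 29.0% of all clone spots. The part of neighbouring signal in the members' levels was not tested. The 2 members with the highest peaks had no neighbour brighter than themselves.

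Whether the members' signal depended on the amplification is a comparison the rule did not make, since it averaged the aRNA and PCR columns. The choice is still not independent of it, since a clone could pass through a high morula value on 1 amplification. On the aRNA columns alone 86 members met the rule, and on the PCR columns alone 66 did. The members' shares below are therefore a description, drawn partly from values that the rule used. With all 18 arrays quantile normalized together, the level on PCR arrays was lower than on aRNA arrays in 73 of 96 members, with a median difference of -0.34 (log2), against -0.01 over all clones and -0.03 over the lcap clones that are no members. By limma on the 9 differences within pools, adjusted over all 2052 clones, 36 members (37.5%) differed between the amplifications, where 19.2% of all clones did: 32 (33.3%) were lower on PCR arrays, where 9.94% of all clones were, and 4 (4.17%) were higher, where 9.26% were. Among the 924 other lcap clones 91 were lower and 70 higher. Of the 32 members, 25 were lower in at least 8 of 9 pools and 8 differed by more than 2-fold. In 9 of 9 pools, 11 members were lower on PCR arrays (4.78% of all clones) and 1 was higher (5.31%). Among the 67 members with no neighbour at least 4 times as bright, 21 were called lower and 4 higher (9.94% and 9.26% of all clones). The share among all clones without so bright a neighbour was not taken, so nothing is read from these 2 counts. Without the dimmest 25% of clones, 37 of 93 members differed between the amplifications (39.8%), where 26.3% of the 1539 clones kept did. Lower on PCR arrays were 33 of these members (35.5%), against 14% of the clones kept. Without the pools of array code 5 the count of members that differed was 13, of which 12 lower (3.12% of all clones). Without blastocyst pool 1 it was 25, of which 21 lower (6.92%).

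The clones named next are members, chosen partly on these same arrays, and most are named as extremes of this same difference. Their limma p-values are therefore a description and add no separate support. The member with the lowest PCR signal relative to aRNA was lcap0002h10, at -1.87 ± 0.35 (SE, log2, adjusted p = 0.0031). It was lower on PCR arrays in 8 of 9 pools, and its differences ran from -3.76 to 0.96 with a median of -2.25. In lcap0024c02 the difference was -1.76 ± 0.25 (SE, adjusted p = 0.000469), with 9 of 9 pools lower. Its morula arrays read 13.14, 12.71 and 11.74 after aRNA and 9.61, 9.60 and 9.24 after PCR, 2 ranges far apart. The brightest members were lower on PCR arrays too, lcap0007a02 by -1.71 ± 0.19 (adjusted p = 0.000108) and lcap0023e12 by -1.11 ± 0.15 (adjusted p = 0.000442), each in 9 of 9 pools. They were picked by mean raw intensity over the morula arrays. In lcap0007a02 this was 17903, 4217 and 17373 on aRNA arrays and 2846, 589 and 4090 on PCR arrays. Such a pick leans towards clones that are lower on PCR arrays, so these 2 add no separate support. In the opposite direction, lcap0020f04 was 1.30 ± 0.26 (SE) higher on PCR arrays (adjusted p = 0.00411, 8 of 9 pools) and lcap0023f01 0.79 ± 0.16 (adjusted p = 0.00529, 9 of 9 pools). Without the pools of array code 5 the differences of lcap0002h10, lcap0020f04 and lcap0023f01 were -1.46, 1.23 and 0.60, with adjusted p of 0.0597, 0.0559 and 0.116, and lcap0024c02 kept its call. For lcap0007a02 and lcap0023e12 that setting was not examined.

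**Figure D3:**
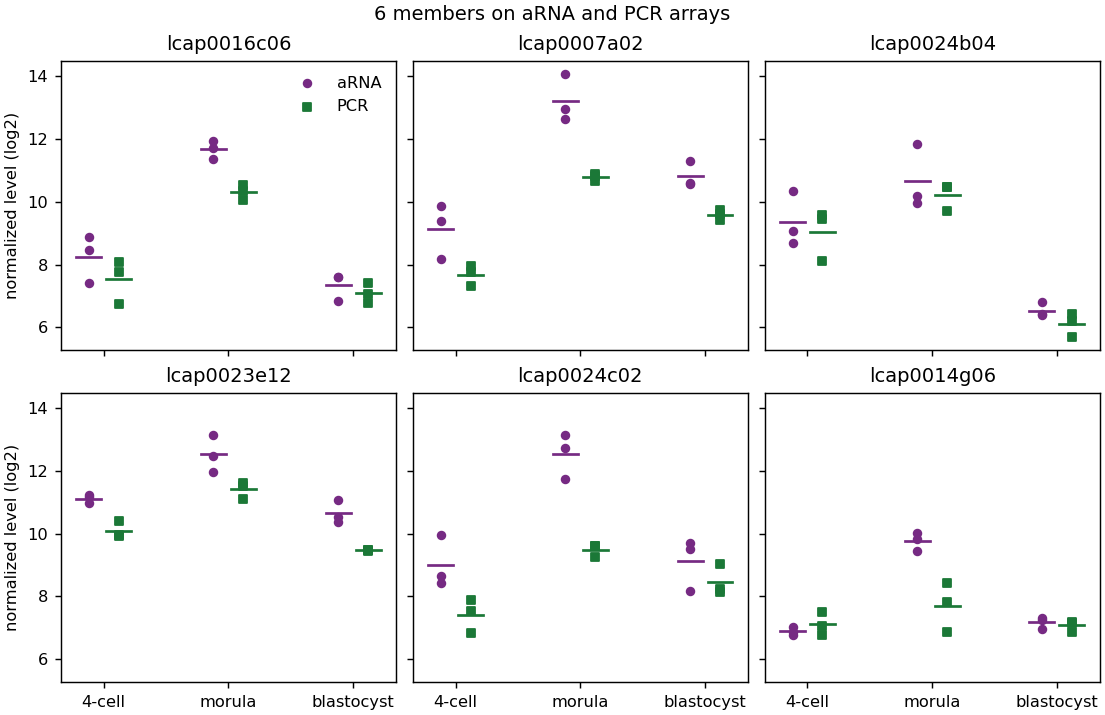
Points are the 18 arrays (normalized over all arrays, log2) of 6 members, aRNA as circles and PCR as squares, with a bar at the mean of the 3 pools. In lcap0024c02 and lcap0014g06 the morula points of aRNA (11.74 to 13.14 and 9.44 to 10.01) lie above those of PCR (9.24 to 9.61 and 6.87 to 8.43).

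The gap between the amplifications had its largest median in the morula. The median PCR minus aRNA difference over the members was -0.27 at the 4-cell stage, -0.63 in the morula and -0.13 in the blastocyst (log2), against -0.03, 0.02 and -0.01 over all clones. The height of the peak, taken as the morula minus the mean of the other stages, had a median of 1.54 on aRNA and 1.08 on PCR arrays. It was higher on aRNA arrays for 76 members. By limma the height differed between the amplifications for 0 of 2052 clones at an adjusted p under 0.05. At an unadjusted p under 0.05 it was smaller on PCR arrays for 26 members (27.1%, against 2.97% of all clones) and larger for 0 (2.39% of all clones). The rule chose the members for a peak, which most other clones lack, so these shares do not compare clones with peaks of like height. It also used the same morula arrays, and a clone could enter through a high value on 1 amplification. The shares are therefore a description only. Median centring called 1 member. The median SE of the difference was 0.36 over the members, which limits what could be detected. In simulated data this fit recovered 7.2% of differences of 1 log2 unit and 85.2% of those of 2. The 0 calls therefore do not show equal heights. Among pools of a stage the members' median SD was 0.42 on aRNA and 0.44 on PCR arrays.

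For a single clone the difference was largest in lcap0014g06. Its morula arrays read 10.01, 9.82 and 9.44 after aRNA and 8.43, 6.87 and 7.82 after PCR, while its 4-cell and blastocyst arrays lay between 6.78 and 7.50 after either. The peak height came to 2.72 (aRNA) and 0.61 (PCR), which differ by -2.11 ± 0.36 (SE; limma, adjusted p = 0.17). In lcap0024c02 the peak was 3.46 on aRNA and 1.54 on PCR arrays (-1.92 ± 0.52 SE, adjusted p = 0.635). At the other end, lcap0011d12 had a peak of 1.12 on aRNA and 1.78 on PCR arrays (0.66 ± 0.31 SE, adjusted p = 0.91), and lcap0023h06 one of 0.72 and 1.37 (0.65 ± 0.39 SE, adjusted p = 0.926). Neither direction passed the test for any of these 4 clones. The spot next to lcap0011d12 was 15.2 times as bright, and the part of that spot in its signal was not tested.

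**Figure D4:**
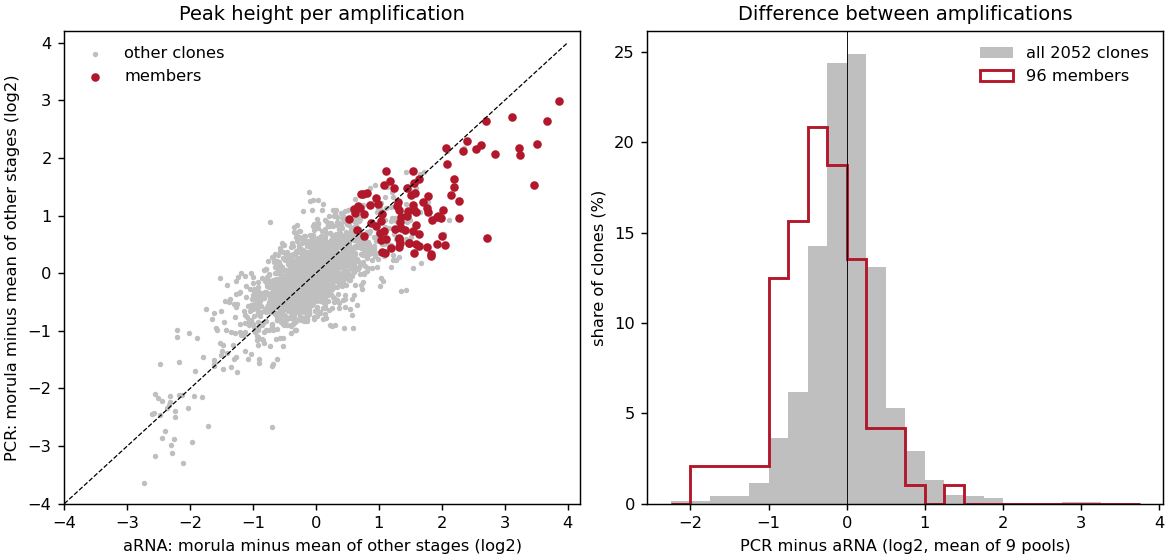
Left, the height of the morula peak (morula minus the mean of the other stages, log2) on PCR arrays against aRNA arrays, with a dashed line at equality; 76 of the 96 members lie below the line. Right, the distribution of the PCR minus aRNA difference (log2, mean of 9 pools) as a share of clones, with a median of -0.34 for the members and -0.01 for all 2052 clones.

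Across the members, peak heights on the 2 amplifications correlated at r = 0.60 (Spearman's rho = 0.34, n = 96 clones, which share pools and arrays), against 0.78 and 0.67 over all clones; the members cover a narrower range of heights because of the rule. The deviations of members from the means of each stage and amplification correlated only weakly from clone to clone. The median r over 18 arrays was 0.18 among the 4560 pairs of members, against -0.01 among all pairs of clones, and 2 pairs of members exceeded 0.9 (0.0439%, against 0.0371% of all pairs).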

How the data were processed

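Each deposited array table gives the intensity of 2304 spots, which the authors measured in AGScan with spots of constant diameter, per the file headers. No background values are included. The deposited quality column holds 0 or 1 (unit other). In the deposited series table each spot name has a score, made by the authors in steps not described in the labels; 0 of its columns belong to other samples. The members and lists were chosen with earlier results of these data known.

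Intensities were corrected with limma's normexp (offset 50) over all spots, log2 transformed and quantile normalized over clone spots, within each amplification for stages and over all 18 arrays for PCR against aRNA. Spots of a clone were averaged. The pool was the replicate. Pool means, or differences within pools, were fitted with limma (lmFit, eBayes) over all 2052 clones, with Benjamini-Hochberg adjustment and a threshold of 0.05. By the correlation of log2 intensities, 0 pairs of arrays were duplicates, and the highest r between arrays was 0.978. The scripts were tested on simulated data. The number of arrays limits the precision, and intensities of dim clones understate differences.

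Named clones were, among members, those with the largest peak, the largest difference at each step, the highest and lowest blastocyst minus 4-cell, PCR minus aRNA and peak by amplification, the brightest in the morula and those nearest the threshold, at most 2 per direction; gene names and markers were not used, since the files pair clones with none. Alternatives covered the normalization, background correction, dim clones, array code, pairing and each pool left out. Versions were R 4.3.3, limma 3.58.1, pandas 2.3.3 and matplotlib 3.10.9.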

Additional observations from a re-analysis of the deposited data

How the results depend on the processing

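Between 86 and 113 clones met the rule with 1 pool left out, 112 with the aRNA columns alone (86 of them members) and 95 with the PCR columns alone (66 of them members). The count was 62 at a threshold of 0.8, 175 at 0.4, 118 on the quantile normalized array tables and 147 on median centred ones, the last 2 each holding 95 of the 96 members. The count of members called higher in the morula than at both other stages was 75 in the main fit. Under median centring it was 34 (1.66% of all clones called), and without array code 5 or 6 it was 43 (2.19%) or 30 (1.51%). The range with 1 pool left out was 43 to 71 (2.34% to 4% of all clones). For PCR against aRNA, quantile normalization within each amplification, which moved the median of all clones to -0.50 (log2), called 82 members (81 lower) and 1248 clones, 95.7% of them lower against 51.8%. Leaving out the pools of array code 5, chosen after seeing the data as for the other codes, called 13 (6.87% of all clones; 12 lower, 3.12%). Leaving out 1 pool called 25 to 40 (13.4% to 22%), of which 21 to 35 lower (6.53% to 11.8%). For the peak by amplification, median centring called 1 member and every other setting 0. The cause was not tested where fewer samples do not account for it. The 4 clones named for the largest PCR minus aRNA differences kept their direction in all 18 settings each. The call was lost without array code 5 for lcap0020f04, lcap0002h10 and lcap0023f01, and for lcap0023f01 also without code 6 (adjusted p = 0.0924) and under quantile normalization within each amplification (0.27).

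The main stage fit did not pair pools of different stages by their numbers. Deviations from the stage means correlated at -0.20 to 0.20 between pools of the same number, and 3 of 9 correlations exceeded 0.1. With 3 pools per stage and no test, these values cannot show whether such pools were related. With the replicate block 71 members (3.75% of all clones) were called in the stage fit. For PCR against aRNA the pairing is the shared RNA of a pool, and with no replicate block 33 members were called (17.3% of all clones; 29 lower, 9.11%), 0 for the peak by amplification.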
